A study of Mus musculus with 12 samples.

Results

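Collagen genes outside type IV were examined in RNA sequencing libraries of podocytes from diabetic mice with and without Nsd2. Every gene of the deposited count tables whose symbol names a collagen chain was taken, except the chains of type IV. This gave 37 of the 25316 genes listed at either age: 11 fibrillar collagens, 8 fibril-associated collagens with interrupted helices (FACIT), 6 microfibrillar collagens (the type VI chains) and 12 others. Nsd2 encodes an enzyme that dimethylates lysine 36 of histone H3, and the series asks what its loss does to podocyte transcripts at an early and an advanced stage of diabetic kidney disease. All mice carried floxed Nsd2 alleles and all had been made diabetic with high-fat diet and streptozotocin (HFD/STZ), so the libraries hold no healthy reference. Knockout mice were Cre+/Nsd2fl/fl and control mice Cre-/Nsd2fl/fl, at 20 or 28 weeks of age. Each of these 4 groups held 3 libraries, 12 in all. The promoter driving Cre is not named in the labels, which call the deletion podocyte-specific. Whether the 3 libraries of a group are 3 animals is not stated, and p-values therefore speak only of the spread from library to library, possibly a technical one.

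Collagens are secreted proteins whose chains wind around each other into a helix, after prolines and lysines of the chains have been hydroxylated inside the cell. Fibrillar collagens assemble into the fibrils of connective tissue, FACIT collagens sit on the surface of such fibrils, and type VI collagen forms beaded filaments between cells and fibrils. In the healthy glomerulus the basement membrane is built on type IV collagen and also holds type XVIII, while fibrillar collagens are best known from the interstitium and from glomeruli undergoing scarring.

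Nsd2 itself was lower but present in every knockout library. Its level at 20 weeks was 94.2, 66.6 and 79.0 CPM in controls against 51.7, 34.1 and 45.0 CPM in knockouts (log2 fold change -0.88, SE 0.21, adjusted p = 0.0402, edgeR quasi-likelihood test with Benjamini-Hochberg adjustment over all genes, which gives all adjusted p-values below unless another tool is named). At 28 weeks it was 87.2, 77.6 and 80.1 CPM in controls against 35.2, 35.2 and 42.9 CPM in knockouts (log2 fold change -1.11, SE 0.13, adjusted p = 0.00431). The call at 20 weeks was lost in 6 of 15 alternative analyses, among them those without control library 1 (adjusted p = 0.164), control library 2 (0.0729), control library 3 (0.0903), knockout library 2 (0.0903) or knockout library 3 (0.111). CPM is the usual count relative to library size, here after TMM scaling, the fold change is knockout over control on the log2 scale, and a gene is said to rise or fall only at an adjusted p below 0.05.

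Total counts ran from 31405349 to 38989180 per library. Podocyte markers were present in every library: none of 10 was at 0, and their summed level was 561 to 1059.7 CPM in controls and 1785 to 2402 CPM in knockouts at 20 weeks, and 948 to 1652 CPM and 562 to 2187 CPM at 28 weeks. Markers of other cells were present too. The sum of 8 smooth muscle markers was 4553 to 4873 CPM in controls and 9662 to 13815 CPM in knockouts at 20 weeks, and 3177 to 3309.7 CPM and 7055 to 15468 CPM at 28 weeks. That of 10 tubule and other epithelial markers was 3880.04 to 6992 CPM in controls but 2216, 253 and 261 CPM in knockouts 1 to 3 at 20 weeks. At 28 weeks it was 4809 to 8140.08 CPM in controls and 7592, 73.2 and 707 CPM in the knockouts, so knockout 1 lay within the controls. The sum of 8 fibroblast markers at 20 weeks was 607 to 678 CPM in controls against 1055 to 1315 CPM in knockouts, with no overlap. At 28 weeks it overlapped, with 569.6 to 845 CPM against 679 to 899.9 CPM. Of these markers Gsn was called higher at 20 weeks, and at 28 weeks Mfap5 was called higher and Pdgfra lower, while Dpt, Pi16 and Scara5 were below the level for testing at both ages. Pdgfra lost its call without any 1 control, without knockout 3 or with controls 2 and 3 summed. The sum of 5 parietal epithelium markers was 656 to 1002 CPM in controls against 355 to 639 CPM in knockouts at 20 weeks, and 1004 to 1177 CPM and 216 to 554 CPM at 28 weeks, with no overlap at either age. Control 3 at 20 weeks stood apart with 159 CPM of 8 leukocyte markers, against 33.4 and 35.0 CPM in the other controls. Controls 2 and 3 at 28 weeks differed from each other far less than any other replicate pair (biological coefficient of variation 0.0472, against 0.225 to 0.413). The counts at 28 weeks were therefore also taken with these libraries summed into 1. Single genes described with values are named where they lost their call in that way, and gene lists are given by count.

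Type I, type V and type XVIII chains were the most abundant of the 37 genes. On the deposited FPKM scale, which divides counts by gene length and library total, Col1a2 had the highest mean over the 12 libraries (212 FPKM, 48.3 to 484). It was followed by Col5a2 (79.9 FPKM, 37.8 to 133), Col1a1 (73.5 FPKM, 27.6 to 158), Col18a1 (41.3 FPKM, 8.08 to 100.2) and Col5a3 (34.1 FPKM, 12.0 to 68.0). Col1a1 and Col1a2 encode the chains of type I collagen, the main fibril former of connective tissue. Col5a2 and Col5a3 encode chains of type V, which is built into type I fibrils. Of the summed FPKM of all collagens, type IV included, fibrillar chains took 35.1 to 57.9% in controls and 49.3 to 58.6% in knockouts at 20 weeks, where the groups overlapped because of control 3. At 28 weeks the fibrillar share was 37.6 to 37.9% in controls and 54.2 to 64.5% in knockouts, with no overlap. The class of other collagens, in which Col18a1 predominated in control libraries, took 9.72 to 11.2% in controls and 3.30 to 5.62% in knockouts at 20 weeks, and 11.6 to 19.0% and 4.95 to 8.24% at 28 weeks. FACIT collagens stayed between 1.23 and 2.20% and microfibrillar collagens between 0.108 and 0.223% of the sum in all 12 libraries. Shares sum to a whole within a library, so a higher share of one class lowers the others.

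**Figure D1:**
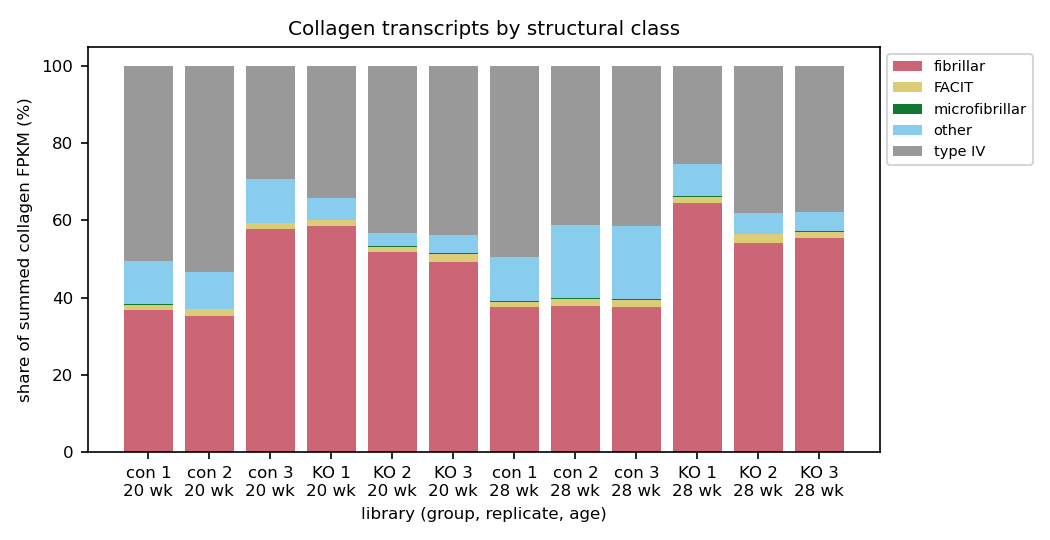
Share of the summed FPKM of all collagen genes (y axis, percent) taken by each structural class in each of the 12 libraries (x axis; con, control; KO, knockout). At 28 weeks the fibrillar share lies at 37.6 to 37.9% in controls and at 54.2 to 64.5% in knockouts.

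At 20 weeks, each class held at least 1 collagen called higher in knockouts. Of the 37 genes 25 could be tested; 6 rose and none fell, and 19 did not pass the test. The risers were the fibrillar chains Col1a2 and Col5a2, the FACIT chains Col12a1 and Col14a1, the type VI chain Col6a3 and the type VIII chain Col8a1. Among all 14853 genes tested 9.92% were called, 4.79% as higher and 5.13% as lower in knockouts. The median log2 fold change of the 25 collagens was 0.69, against 0.01 over all genes, and 18 of the 25 values were positive. Every knockout library lay above every control for 10 collagens and below for 1; over all genes this held for 15.5% and 16.7%. Of the fibrillar chains 2 of 9 tested rose (class median 0.93), of the FACIT chains 2 of 6 (0.59), of the type VI chains 1 of 3 (1.15) and of the others 1 of 7 (0.19). In libraries of mixed cells, more cells of a type and more RNA per cell cannot be told apart. Podocyte markers were higher too, 6 of 10, but 2 in the 12-library model or without control 2, 3 without knockout 2 or knockout 3, and 4 without control 3. Smooth muscle markers moved with these collagens, with 6 of 8 higher in knockouts, as did mesangial and pericyte markers, with 6 of 10 higher and a summed level of 387 to 477 CPM in controls and 1004 to 1070.06 CPM in knockouts. That count was 1 in the 12-library model, 2 without control 2, and 3 without control 1, control 3, knockout 2 or knockout 3. The fibroblast sum was higher in every knockout as well, with 1 of 8 markers called (none without control 2). The list as a whole did not move: the 5 fibroblast markers tested had a median log2 fold change of 0.06 (-0.88 to 0.93), and 3 were positive. The part of any of these in the collagen values was not tested.

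**Figure D2:**
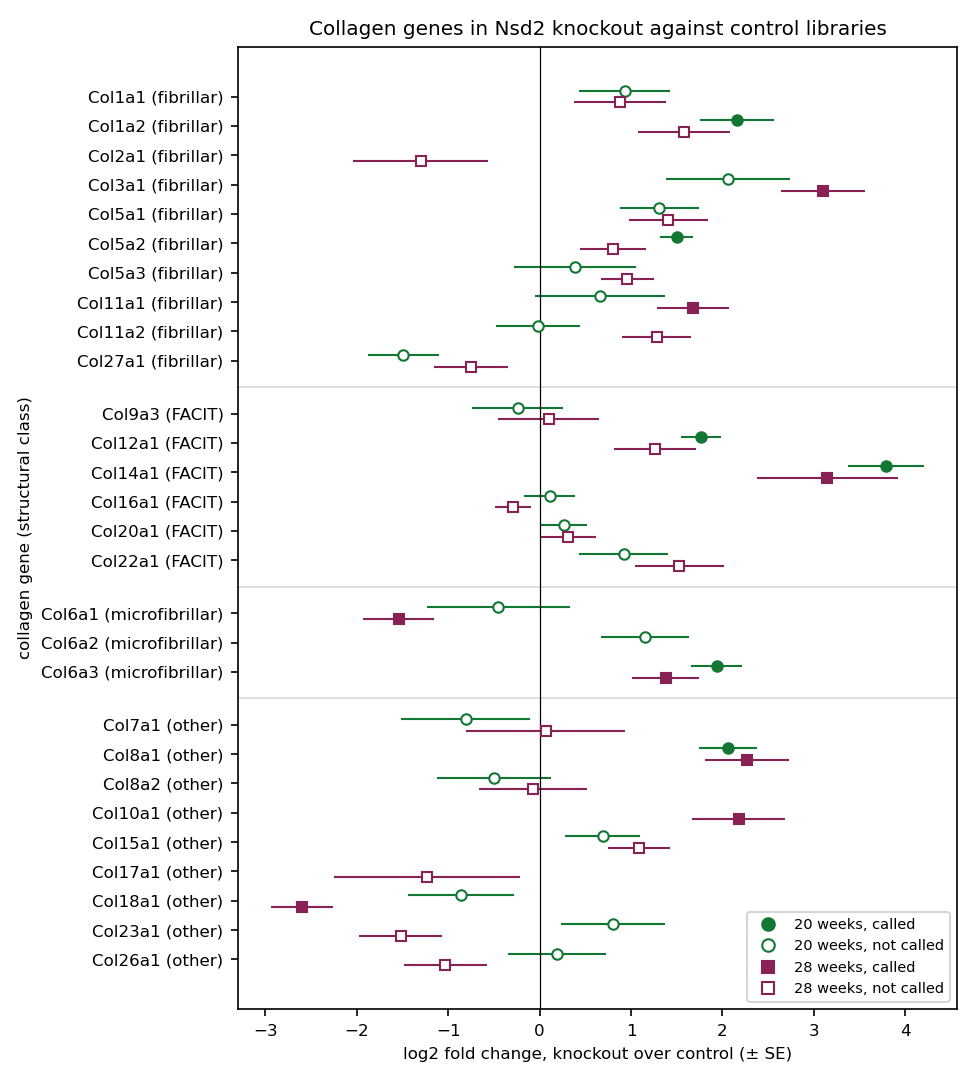
Log2 fold change of knockout over control (x axis, with SE) for each collagen gene tested (y axis, grouped by structural class), at 20 weeks (circles) and 28 weeks (squares); filled symbols passed an adjusted p below 0.05. Filled symbols lie right of 0 at both ages, except those of Col6a1 (-1.54) and Col18a1 (-2.60) at 28 weeks.

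Among the fibrillar chains, Col1a2 (chr6:4504814-4541544, plus strand; all gene positions are of GRCm38) had 419.8, 248 and 799.7 CPM in controls against 2622, 2038 and 1905 CPM in knockouts. All knockouts were above all controls, and control 3 was the highest control (log2 fold change 2.16, SE 0.40, adjusted p = 0.0152). The call was lost without control 1 (log2 fold change 2.05, adjusted p = 0.0893) or knockout 2 (2.22, 0.0502). Col5a2 (chr1:45374321-45503282, minus strand) was 318, 246 and 338 CPM in controls against 916, 832 and 799 CPM in knockouts. The 3 libraries of each group were close together here (log2 fold change 1.5, SE 0.18, adjusted p = 0.00383), and the call was kept in all 15 alternative analyses. Col1a1 (chr11:94936224-94953042, plus strand), whose protein pairs with that of Col1a2 in type I collagen, was 248, 166 and 670.3 CPM in controls against 972, 570.3 and 521 CPM in knockouts. Control 3 lay within the knockouts, so the groups overlapped and the test was not passed (log2 fold change 0.93, SE 0.50, adjusted p = 0.302). Without control 3, the library with the high leukocyte sum, Col1a1 passed (log2 fold change 1.73, adjusted p = 0.0237). The part of leukocytes in the control 3 value was not tested.

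The FACIT chain Col12a1 (chr9:79598991-79718831, minus strand) encodes type XII collagen, found along type I fibrils. It was 77.4, 66.2 and 84.3 CPM in controls against 260.2, 194 and 324 CPM in knockouts, with the groups well apart (log2 fold change 1.77, SE 0.22, adjusted p = 0.00419). Col14a1 (chr15:55307750-55520803, plus strand), whose product binds decorin on fibrils and limits their growth, had the largest fold of the 25 collagens tested. Its level was 0.415, 0.386 and 0.975 CPM in controls against 8.69, 7.24 and 8.84 CPM in knockouts, which is low in absolute terms but rests on 255 to 314 reads in each knockout against 14 to 37 in each control (log2 fold change 3.79, SE 0.42, adjusted p = 0.00324). Both calls were kept in every alternative run, 15 for Col12a1 and 13 for Col14a1.

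Of the type VI chains, Col6a3 (chr1:90765923-90843971, minus strand), the long chain of type VI collagen, was 5.42, 3.47 and 6.32 CPM in controls against 23.1, 17.5 and 17.7 CPM in knockouts. No knockout came near a control (log2 fold change 1.94, SE 0.28, adjusted p = 0.00664), and the call was kept in all 15 alternatives. Col6a1, its usual partner chain, was 2.36, 0.331 and 4.03 CPM in controls against 2.63, 1.48 and 0.825 CPM in knockouts, with overlapping groups (log2 fold change -0.45, SE 0.78, adjusted p = 0.786). Col8a1 (chr16:57624258-57754737, minus strand) encodes a short network-forming collagen known from vessel walls. It was 38.3, 34.4 and 68.4 CPM in controls against 182, 151 and 257 CPM in knockouts, again without overlap (log2 fold change 2.06, SE 0.32, adjusted p = 0.00849), but the call was lost without control 1 (log2 fold change 1.92, adjusted p = 0.0622).

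**Figure D3:**
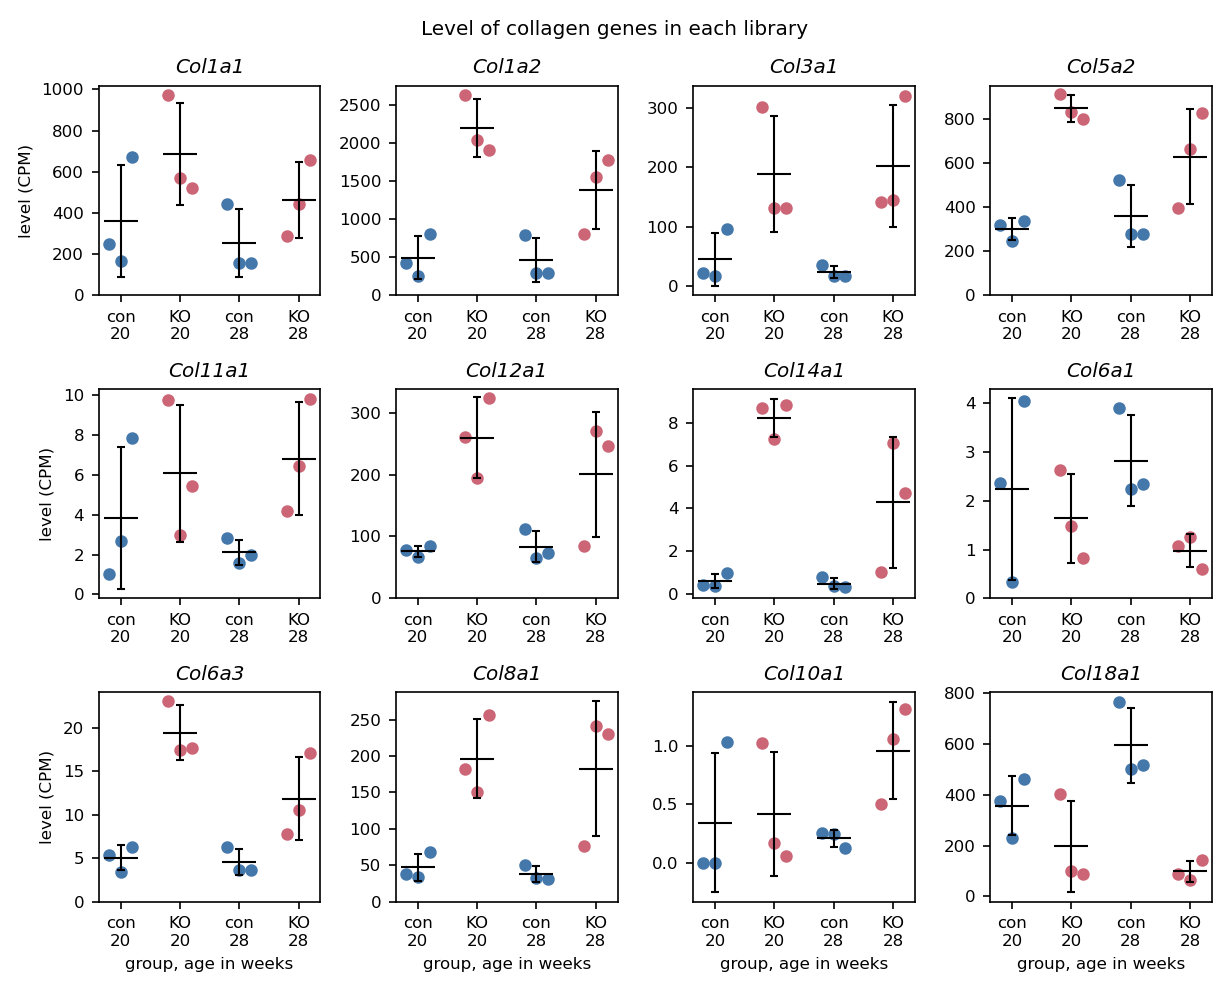
Level (y axis, CPM, linear) of 12 collagen genes in each library by group and age in weeks (x axis; con, control, blue; KO, knockout, red), with mean and SD of 3 libraries in black. Col1a2, Col3a1, Col6a3, Col8a1 and Col14a1 lie higher in every knockout than in every control of the same age, and Col6a1 and Col18a1 at 28 weeks lie lower. Of these, Col1a2 at 28 weeks and Col3a1 at 20 weeks did not pass the test. Over all genes tested, every knockout lay above every control for 15.5% at 20 weeks and 19.3% at 28 weeks, and below every control for 22.8% at 28 weeks.

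Among the collagens tested at 20 weeks and not called, the smallest p-values were those of Col27a1, Col3a1 and Col5a1. Col27a1, a fibrillar chain best known from cartilage, was 40.2, 20.1 and 27.6 CPM in controls against 16.3, 8.46 and 6.45 CPM in knockouts, lower in every knockout (log2 fold change -1.49, SE 0.39, adjusted p = 0.0507). It was the only collagen lower in knockouts at an unadjusted p below 0.05 and DESeq2 called it (adjusted p = 0.00263), as did upper-quartile scaling (0.0478), no filter (0.0179) and limma on FPKM at pseudocount 0.1 (0.0362) or 1 (0.0310). It also passed without knockout 1 (log2 fold change -1.97, adjusted p = 0.00700), when 2 collagens were called lower, Col27a1 and Col18a1. Col3a1, the type III chain that accompanies type I in elastic tissue, was 22.5, 16.6 and 96.9 CPM in controls against 302, 132 and 132 CPM in knockouts (log2 fold change 2.06, SE 0.68, adjusted p = 0.101). It passed without control 3 (log2 fold change 3.27, adjusted p = 0.00728), with no filter (2.10, 0.0275), and with limma on FPKM at pseudocount 0.1 (2.28, 0.0462) or 1 (2.09, 0.0396). Col5a1, the type V chain that starts fibrils, was 146, 96.5 and 319 CPM in controls against 631, 416 and 346 CPM in knockouts, where the lowest knockout was only just above control 3 (log2 fold change 1.31, SE 0.43, adjusted p = 0.101). It passed with DESeq2 (1.32, 0.0126), with no filter (1.35, 0.0345) and without control 3 (1.94, 0.0144). Col5a3 overlapped widely, at 104, 71.9 and 348 CPM in controls against 431, 132 and 122 CPM in knockouts (log2 fold change 0.39, SE 0.67, adjusted p = 0.784), with control 3 and knockout 1 high in their groups.

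Col18a1 (chr10:77052178-77166548, minus strand), the basement membrane collagen from which endostatin is cleaved, did not pass at 20 weeks. Its level was 377, 232 and 461 CPM in controls against 404, 98.1 and 87.1 CPM in knockouts. Knockouts 2 and 3 were below all controls, and knockout 1 was among them (log2 fold change -0.86, SE 0.58, adjusted p = 0.418). Without knockout 1 the gene passed (log2 fold change -1.94, adjusted p = 0.00531). Knockout 1 was also the knockout with the most epithelial marker RNA, at 2216 CPM, and the part of this in the value was not tested.

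At 28 weeks, 27 of the 37 genes could be tested; 6 rose, 2 fell and 19 did not pass. The risers were the fibrillar chains Col3a1 and Col11a1, the FACIT chain Col14a1, the type VI chain Col6a3, and Col8a1 and Col10a1 of the network-forming collagens; Col18a1 and Col6a1 fell. Over all 15011 genes tested 21.2% were called, 9.33% as higher and 11.9% as lower. The median log2 fold change of the 27 collagens was 0.88, against 0.07 over all genes, and 18 values were positive. Every knockout lay above every control for 12 collagens and below for 5, where all genes gave 19.3% and 22.8%. By class, 2 of 10 fibrillar chains rose (median 1.12), 1 of 6 FACIT chains (0.78), 1 of 2 type VI chains with the other falling, and 2 of 9 others with 1 falling (-0.07). With controls 2 and 3 summed, when 8.5% of all genes were called, only Col3a1 (log2 fold change 2.93, adjusted p = 0.0382) and Col18a1 (-2.70, 0.0273) still passed. The count of risers was 1 without control 2 or without control 3, 2 without knockout 2 or without knockout 3, and 10 without knockout 1. Of the smooth muscle markers 5 of 8 were higher in knockouts at this age, and of the mesangial and pericyte markers 2 of 10, with a summed level of 340.2 to 579.6 CPM in controls and 433 to 913 CPM in knockouts. Leukocyte markers were higher for 2 of 8, with sums of 33.3 to 45.2 CPM and 47.7 to 107 CPM. With controls 2 and 3 summed, as without either of them, these counts were 3 for smooth muscle, 1 for mesangial cells and pericytes and 0 for leukocytes. The leukocyte count was also 0 without knockout 2, 1 without control 1, without knockout 1 or in the 12-library model, and 3 without knockout 3, and the mesangial and pericyte count was 1 without control 1, knockout 2 or knockout 3. Of the podocyte markers 2 of 10 were lower, Nphs1 and Npnt, and of the parietal epithelium markers 2 of 5, Pax2 and Pax8; each of these counts was 1 without any 1 control or with controls 2 and 3 summed, and without knockout 2 the podocyte count was 4. All 5 parietal markers were lower in every knockout than in every control. The part of any of these in the collagen values was not tested.

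Col3a1 (chr1:45311538-45349706, plus strand) showed the second-highest fold at this age. It was 35.4, 17.7 and 17.8 CPM in controls against 141, 145 and 321 CPM in knockouts, and the lowest knockout was far above control 1, the highest control (log2 fold change 3.10, SE 0.46, adjusted p = 0.00726). Its exons share bases with those of Gm47302 on the same strand, so reads of the shared stretch could belong to either. Col11a1 (chr3:114030540-114220718, plus strand), a chain of the minor fibrillar collagen XI, was 2.82, 1.59 and 1.98 CPM in controls against 4.17, 6.46 and 9.83 CPM in knockouts. The groups did not overlap (log2 fold change 1.68, SE 0.39, adjusted p = 0.0279), but the call was lost without control 2 (adjusted p = 0.103), control 3 (0.105), knockout 2 (0.0705) or knockout 3 (0.0620); the 12-library model gave 0.111. At 20 weeks it was 1.01, 2.67 and 7.85 CPM in controls against 9.76, 3.01 and 5.46 CPM in knockouts, with overlap (log2 fold change 0.66, SE 0.71, adjusted p = 0.641).

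Col14a1 was 0.768, 0.366 and 0.301 CPM in controls against 1.03, 7.09 and 4.71 CPM in knockouts. Knockout 1 was close to control 1, and the other knockouts were well above (log2 fold change 3.15, SE 0.77, adjusted p = 0.0318). This call was lost without control 1 (log2 fold change 3.66, adjusted p = 0.0582), control 2 (2.99, 0.115), control 3 (2.91, 0.114), knockout 2 (2.60, 0.0918) or knockout 3 (3.04, 0.0725). Col12a1, which had risen at 20 weeks, was 112, 65.5 and 72.8 CPM in controls against 85.3, 270.3 and 246 CPM in knockouts; knockout 1 lay within the controls and the test was not passed (log2 fold change 1.26, SE 0.45, adjusted p = 0.0970). It passed without knockout 1 (log2 fold change 1.62, adjusted p = 0.0104), with DESeq2 (1.28, 0.0167) and in the 12-library model (1.24, 0.0438).

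Both type VI chains tested at 28 weeks were called, in opposite directions. Col6a3 was 6.30, 3.63 and 3.69 CPM in controls against 7.81, 10.6 and 17.1 CPM in knockouts (log2 fold change 1.38, SE 0.37, adjusted p = 0.0437). Col6a1 (chr10:76708792-76726168, minus strand) was 3.89, 2.24 and 2.33 CPM in controls against 1.07, 1.25 and 0.600 CPM in knockouts, that is 21 to 38 reads in each knockout and 92 to 152 in each control (log2 fold change -1.54, SE 0.39, adjusted p = 0.0376). Neither pair of groups overlapped. Col6a3 lost its call without control 2 (adjusted p = 0.144), control 3 (0.147), knockout 2 (0.0928) or knockout 3 (0.0956), and Col6a1 lost it whichever of the 6 libraries was left out (adjusted p 0.0509 to 0.0983) and in the model of 12 libraries (0.159).

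Col8a1 remained higher in knockouts at 28 weeks, at 50.1, 32.0 and 31.1 CPM in controls against 75.8, 241 and 231 CPM in knockouts, with knockout 1 the lowest of the knockouts (log2 fold change 2.27, SE 0.46, adjusted p = 0.0183). The call was lost without control 2 (log2 fold change 2.16, adjusted p = 0.0753), control 3 (2.15, 0.0768) or knockout 2 (2.03, 0.0599). Col10a1 (chr10:34389981-34397085, plus strand), a network-forming collagen of growth-plate cartilage, was near the limit of detection, with 5 to 10 reads in each control and 16 to 46 in each knockout. Its level was 0.256, 0.244 and 0.125 CPM in controls against 0.502, 1.05 and 1.31 CPM in knockouts (log2 fold change 2.18, SE 0.51, adjusted p = 0.0280). It lies within Nt5dc1 on the opposite strand and shares exon bases with it; with a strand setting not given in the sources used here, reads of these genes cannot be told apart. The call was lost without any 1 of control 1 (adjusted p = 0.0691), control 2 (0.0913), control 3 (0.107), knockout 2 (0.0876) or knockout 3 (0.0785); the 12-library model gave 0.318.

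Col18a1 had the clearest difference of all collagens at 28 weeks. Its level was 765, 500.2 and 518 CPM in controls against 88.2, 64.0 and 143 CPM in knockouts. All knockouts were far below all controls (log2 fold change -2.60, SE 0.34, adjusted p = 0.00595), and the call was kept in all 16 alternatives. Knockout 1, whose epithelial marker sum of 7592 CPM lay within that of the controls, had 88.2 CPM of Col18a1. The parietal epithelium markers were low together with Col18a1, at 1177, 1004 and 1065 CPM in controls against 554, 216 and 469 CPM in knockouts. The part of either cell type in the Col18a1 values was not tested.

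The remaining abundant chains did not pass at 28 weeks. Col1a2 was 797, 289 and 296 CPM in controls against 803, 1556 and 1773 CPM in knockouts. Knockout 1 equalled control 1 almost exactly, and the other knockouts were higher (log2 fold change 1.58, SE 0.50, adjusted p = 0.0693). Without control 1 (log2 fold change 2.23, adjusted p = 0.0256) or knockout 1 (1.86, 0.0412) it passed, as it did with DESeq2 (1.61, 0.00337) and in the 12-library model (1.56, 0.0475). Col1a1 was 443, 156 and 159 CPM in controls against 290.0, 445 and 658 CPM in knockouts, with overlap (log2 fold change 0.88, SE 0.50, adjusted p = 0.271), and passed only without control 1 (log2 fold change 1.56, adjusted p = 0.0490). Control 1 had the highest level of both type I chains among the controls. Col5a2 was 523, 279 and 280.0 CPM in controls against 397, 665 and 827 CPM in knockouts (log2 fold change 0.80, SE 0.36, adjusted p = 0.167). Col5a3 was 179, 135 and 133 CPM in controls against 207, 243 and 418 CPM in knockouts (log2 fold change 0.96, SE 0.29, adjusted p = 0.0605), and passed without knockout 1 (log2 fold change 1.15, adjusted p = 0.0357), with DESeq2 (0.98, 0.0082) and with upper-quartile scaling (1.00, 0.0411). For Col5a2 the groups overlapped and for Col5a3 they did not.

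The smallest p-values among collagens tested and not called at 28 weeks were those of Col23a1, a transmembrane collagen, Col11a2, the partner chain of Col11a1, and Col5a3. Col23a1 was 0.666, 0.317 and 0.627 CPM in controls against 0.219, 0.165 and 0.171 CPM in knockouts from at most 26 reads per library, lower in every knockout (log2 fold change -1.52, SE 0.45, adjusted p = 0.0568). Col11a2 was 0.717, 0.878 and 0.527 CPM in controls against 2.41, 1.29 and 1.46 CPM in knockouts, higher in every knockout (log2 fold change 1.28, SE 0.38, adjusted p = 0.0571), and passed with DESeq2 (1.29, 0.0175). The other tested collagens that were called at neither age and are not named above had fold changes between -0.81 (Col7a1) and 1.15 (Col6a2) at 20 weeks and between -1.30 (Col2a1) and 1.53 (Col22a1) at 28 weeks. Col7a1, the anchoring fibril collagen of epithelia, spread widely within groups, from 14.3 to 85.4 CPM in controls at 20 weeks and from 17.1 to 161 CPM in knockouts at 28 weeks.

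Altogether 11 collagens were called at either age and 3 at both, Col14a1, Col6a3 and Col8a1, all higher in knockouts each time. These 3 are 50.0% of the 6 calls at 20 weeks and 37.5% of the 8 at 28 weeks. The matching share over all genes was not counted, so these percentages do not set the collagens apart. With controls 2 and 3 at 28 weeks summed, all 3 lost their call at that age in the edgeR test. The adjusted p was then 0.112 for Col14a1, 0.145 for Col6a3 and 0.0764 for Col8a1.

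Another 9 collagens were too low to test at either age. Their counts, summed over 3 libraries, were at most 13 in any group, except for Col28a1, with 12 reads in controls and 45 in knockouts at 20 weeks and 18 and 34 at 28 weeks. Col13a1 had 1 read in controls and 0 in knockouts at 20 weeks, and 13 and 0 at 28 weeks. Col6a6 had 0 reads in controls at both ages, with 2 and 1 in knockouts at 20 and 28 weeks. The group sums of Col6a4 were 2 and 5 at 20 weeks and 3 and 10 at 28 weeks (control, then knockout), those of Col6a5 were 2 and 5, then 6 and 4, and those of Col9a2 were 2 and 4, then 2 and 2. Those of Col19a1 were 4 and 5, then 1 and 7, those of Col24a1 were 2 and 2, then 7 and 2, and those of Col25a1 were 10 and 4, then 4 and 5. These genes code for minor chains with restricted expression, and 3 of the 6 type VI chains are among them. At the depth of these libraries 3 reads, the limit that a count of 0 allows, correspond to 0.0732 to 0.0989 CPM; this covers counting error only, since copies made by PCR cannot be recognised. At 20 weeks Col2a1 (51 and 18 reads), Col10a1 (39 and 45) and Col17a1 (18 and 5) were not tested either, nor was Col6a2 at 28 weeks (35 and 23). All 39 control reads of Col10a1 at 20 weeks came from control 3, and 37 of the 45 knockout reads from knockout 1.

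Ratios between chains of the same collagen type compare levels within a library. The FPKM ratio of Col1a1 to Col1a2 was 0.520, 0.590 and 0.738 in controls and 0.327, 0.246 and 0.241 in knockouts at 20 weeks. At 28 weeks it was 0.489, 0.474 and 0.473 in controls and 0.318, 0.252 and 0.327 in knockouts. Every knockout was thus below every control at both ages, including knockout 1 at 28 weeks, whose Col1a2 level was close to that of control 1. The ratio of Col6a3 to Col6a1 was 0.574 to 3.85 in controls and 3.22 to 7.88 in knockouts at 20 weeks, and 0.579 to 0.593 and 2.68 to 10.4 at 28 weeks. For type V the ratio of Col5a1 to Col5a2 overlapped at 20 weeks (0.305 to 0.732 in controls, 0.337 to 0.536 in knockouts) and did not at 28 weeks (0.264 to 0.315 and 0.392 to 0.484). The ratio of Col6a1 to Col6a2 overlapped at 20 weeks (3.03 to 17.2 in controls, 2.31 to 6.84 in knockouts) and did not at 28 weeks (13.5 to 17.6 and 4.68 to 9.58). That of Col8a1 to Col8a2 did not overlap at 20 weeks (59.9 to 109.6 and 221.6 to 660.3) but did at 28 weeks (49.4 to 143.1 and 101 to 1601). Both rest on scarce denominators, at most 0.0947 FPKM for Col6a2 and 0.2245 FPKM for Col8a2. These ratios were set up with earlier results of these data known and are given as a description, with no test.

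**Figure D4:**
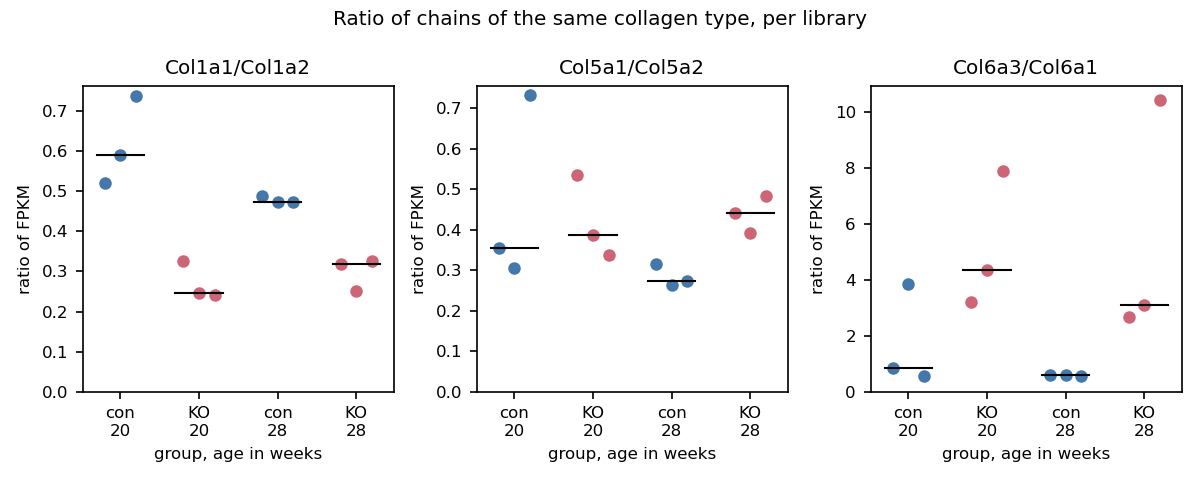
Ratio of FPKM values of chains of the same collagen type (y axis, linear) in each library, by group and age in weeks (x axis; con, control; KO, knockout); lines mark group medians. The ratio of Col1a1 to Col1a2 lies at 0.473 to 0.738 in controls and at 0.241 to 0.327 in knockouts.

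Promoter sequences are shown for the 5 collagens called higher at 28 weeks that had an entry, since they were called in the same comparison. With controls 2 and 3 summed, only Col3a1 of these kept its call. None of the 5 windows holds an annotated exon. Each window is the 250 bases before the RefSeq start of transcription on GRCm38.p6, written 5′ to 3′ on the strand of the gene. Capitals mark the CCAAT box, the GC box GGGCGG and the TATA box TATAAA, searched on both strands, so that some appear as their reverse complement. The positions are chr1:45311288-45311537 (plus strand) for Col3a1, chr16:57754738-57754987 (minus strand) for Col8a1, chr1:90843972-90844221 (minus strand) for Col6a3, chr3:114030290-114030539 (plus strand) for Col11a1 and chr10:34389731-34389980 (plus strand) for Col10a1.
Col3a1: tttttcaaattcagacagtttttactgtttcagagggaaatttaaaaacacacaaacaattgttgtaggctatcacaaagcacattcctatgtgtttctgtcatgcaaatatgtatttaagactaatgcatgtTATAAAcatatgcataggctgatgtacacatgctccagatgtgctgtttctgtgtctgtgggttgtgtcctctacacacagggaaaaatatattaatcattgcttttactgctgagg
Col8a1: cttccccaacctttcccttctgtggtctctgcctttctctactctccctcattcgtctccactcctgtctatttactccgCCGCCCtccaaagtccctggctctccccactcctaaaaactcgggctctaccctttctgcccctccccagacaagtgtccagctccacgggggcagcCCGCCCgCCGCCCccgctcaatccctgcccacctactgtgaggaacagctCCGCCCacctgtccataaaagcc
Col6a3: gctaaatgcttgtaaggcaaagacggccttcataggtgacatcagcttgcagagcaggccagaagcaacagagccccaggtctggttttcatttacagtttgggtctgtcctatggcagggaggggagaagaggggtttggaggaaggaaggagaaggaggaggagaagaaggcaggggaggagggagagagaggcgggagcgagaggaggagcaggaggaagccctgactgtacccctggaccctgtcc
Col11a1: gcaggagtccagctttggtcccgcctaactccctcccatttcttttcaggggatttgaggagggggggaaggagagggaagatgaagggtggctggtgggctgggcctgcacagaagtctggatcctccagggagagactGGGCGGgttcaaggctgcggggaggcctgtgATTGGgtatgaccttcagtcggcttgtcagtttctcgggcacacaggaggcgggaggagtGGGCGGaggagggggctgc
Col10a1: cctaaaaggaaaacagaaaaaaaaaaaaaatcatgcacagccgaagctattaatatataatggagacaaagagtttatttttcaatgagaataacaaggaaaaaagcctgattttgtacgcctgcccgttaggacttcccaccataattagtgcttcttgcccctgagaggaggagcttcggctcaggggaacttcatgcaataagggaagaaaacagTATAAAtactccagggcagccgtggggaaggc
The window of Col3a1 held TATAAA, beginning 117 bases before the start, and that of Col10a1 held it 32 bases before the start; neither held GGGCGG. That of Col8a1 held GGGCGG 4 times, and that of Col11a1 held it 2 times together with a CCAAT element, whereas Col6a3 had none of the 3 elements. An entry was found for 29 of the 37 collagens. Of these, 9 held CCAAT (33.8% of all 32851 promoters of that length), 18 held GGGCGG (32.7%) and 5 held TATAAA (12.4%). The TEAD element GGAATG was in 4 (12.6%), the SMAD element CAGACA in 9 (17.1%) and the AP-1 element TGACTCA in 1 (4.46%). The units differ: the percentages count each promoter, whereas Col6a2 and Col18a1, with 2 windows each, counted if either held the element. A match of letters is a description of the window and shows no binding.

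No collagen passed a test of a difference between the ages. In a model of all 12 libraries, none of 29 collagens and none of 15662 genes passed for a change of the knockout effect between 20 and 28 weeks (edgeR quasi-likelihood test); 3 collagens and 9.12% of all genes had an unadjusted p below 0.05. DESeq2 called 34 genes and no collagen. The smallest p-values were those of Col23a1 (log2 difference of effects -2.30, SE 0.74, adjusted p = 0.538), Col18a1 (-1.75, SE 0.79, adjusted p = 0.545) and Col11a2 (1.31, SE 0.59, adjusted p = 0.547). For 28 against 20 weeks within controls no gene passed, and no collagen and 2.98% of all genes had an unadjusted p below 0.05; DESeq2 called 1 gene and no collagen. The smallest p-values were those of Col11a2 (log2 difference -0.90), Col26a1 (1.04) and Col23a1 (1.00), all at an adjusted p of 0.9999. Within knockouts again no gene passed, and 2 collagens and 11.2% of all genes had an unadjusted p below 0.05; DESeq2 called 40 genes and no collagen. There the leading genes were Col6a2 (-1.23), Col23a1 (-1.30) and Col6a3 (-0.69), each lower at 28 weeks on average. A collagen called at 1 age alone is therefore not shown to differ between ages. The ages were deposited as separate tables, so age and any difference in handling between the tables cannot be told apart.

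Genes that fold, modify and export collagen chains were examined from a list of their own. The counts of this list and of those that follow stand beside 4.79% of all genes called higher and 5.13% lower at 20 weeks, and 9.33% and 11.9% at 28 weeks. Of 21 such genes 9 rose and none fell at 20 weeks (median log2 fold change 0.97), and 11 rose and none fell at 28 weeks (0.85). Sparc, a collagen-binding chaperone, was 2266, 2000.0 and 3595 CPM in controls against 8950.0, 11276 and 9424 CPM in knockouts at 20 weeks (log2 fold change 1.92, SE 0.25, adjusted p = 0.00476). P3h3, a prolyl 3-hydroxylase family member, was 13.1, 11.5 and 18.9 CPM in controls against 37.6, 40.7 and 33.1 CPM in knockouts (log2 fold change 1.36, SE 0.22, adjusted p = 0.0105). At 28 weeks P3h4, its partner in the hydroxylase complex for helical lysines, was 22.4, 17.1 and 17.9 CPM in controls against 74.0, 71.6 and 65.9 CPM in knockouts (log2 fold change 1.88, SE 0.15, adjusted p = 0.00238). The prolyl isomerase Fkbp14 was 22.2, 19.9 and 17.0 CPM in controls against 46.6, 60.8 and 58.9 CPM in knockouts at that age (log2 fold change 1.49, SE 0.17, adjusted p = 0.00402). In each of these examples every knockout was above every control. Sparc at 20 weeks and P3h4 at 28 weeks kept their calls in every alternative, and P3h3 lost it without control 1 (log2 fold change 1.27, adjusted p = 0.0582). The number of risers was 3 without control 1 or without control 2, 5 without knockout 2 and 14 without control 3 at 20 weeks, and 7 without control 2, without control 3 or with these summed at 28 weeks. With the replicate number as a block it was 1 at 28 weeks, and Fkbp14 lost its call (adjusted p = 0.0523).

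Enzymes that trim procollagen and crosslink fibrils were also represented: of 12 tested 6 rose and none fell at 20 weeks (median 0.99), and 3 rose and 1 fell at 28 weeks (0.65). Pcolce, which enhances removal of the C-terminal propeptide, was 52.6, 37.9 and 33.0 CPM in controls against 122, 131 and 104 CPM in knockouts at 20 weeks (log2 fold change 1.53, SE 0.21, adjusted p = 0.00648; 0.0623 in the model of 12 libraries). At 28 weeks it was 101, 33.8 and 33.8 CPM in controls against 26.8, 58.1 and 77.1 CPM in knockouts (log2 fold change -0.06, SE 0.55, adjusted p = 0.958). Lox, the lysyl oxidase that starts crosslinks, was 300.2, 216 and 513 CPM in controls against 1657, 1316 and 2158 CPM in knockouts at 20 weeks (log2 fold change 2.32, SE 0.34, adjusted p = 0.00748). At 28 weeks Lox was 462, 251 and 279 CPM in controls against 720.0, 1574 and 1196 CPM in knockouts (log2 fold change 1.82, SE 0.36, adjusted p = 0.0169). Its relative Loxl3 was 7.47, 4.66 and 4.59 CPM in controls against 12.3, 22.9 and 19.3 CPM in knockouts at 28 weeks (log2 fold change 1.70, SE 0.32, adjusted p = 0.0134). Both lysyl oxidases were higher in every knockout, while Pcolce overlapped between groups at the later age. Without control 1 Lox did not pass at 20 weeks (adjusted p = 0.0570), and the list then had 1 riser; it had 3 without control 2 and 2 without knockout 2. At 28 weeks it had 5 without knockout 1 and none without control 2, without control 3 or with these summed, where Lox had adjusted p-values of 0.0681, 0.0737 and 0.0707 and Loxl3 0.0601, 0.0611 and 0.0603.

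Proteins that coat or bind fibrils rose in 3 of 6 cases at 20 weeks (median 1.98) and in 3 of 5 at 28 weeks (1.72), and none fell. Dcn encodes decorin, a small proteoglycan of the fibril surface, and was 0.596, 0.882 and 0.738 CPM in controls against 5.53, 8.43 and 11.3 CPM in knockouts at 20 weeks (log2 fold change 3.51, SE 0.37, adjusted p = 0.00286). At 28 weeks Dcn was 0.410, 0.463 and 0.828 CPM in controls against 3.45, 14.6 and 7.77 CPM in knockouts (log2 fold change 3.91, SE 0.62, adjusted p = 0.00875). Its relative Bgn, biglycan, was 177, 95.8 and 222 CPM in controls against 1097, 977 and 872 CPM in knockouts at 20 weeks (log2 fold change 2.57, SE 0.31, adjusted p = 0.00383). The matricellular gene Thbs2, which is needed for regular fibrils, was 4.02, 2.83 and 1.78 CPM in controls against 13.5, 15.3 and 22.9 CPM in knockouts at 28 weeks (log2 fold change 2.58, SE 0.37, adjusted p = 0.00684). In these libraries Bgn was abundant and Dcn scarce, although the log2 fold change of Dcn was the larger. The calls of Dcn and Bgn at 20 weeks were kept in all 15 alternatives; 2 genes of the list rose without control 1, without control 2 or without knockout 2. At 28 weeks 2 rose without control 2, without control 3 or with these summed, and 5 without knockout 1. None rose at that age with the replicate number as a block, where Dcn (adjusted p = 0.0522) and Thbs2 (0.0633) lost their calls. Bgn was not called at 28 weeks in the analysis reported. It passed there with DESeq2 (log2 fold change 1.5, adjusted p = 0.0165) and without knockout 1 (1.84, 0.0353).

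Of the collagen receptors, 2 of 9 rose at each age and none fell (medians 0.69 and 0.70). At 28 weeks this is near the 21.2% of all genes called in either direction, and it does not set the receptors apart. The integrin subunit Itga11, which binds type I collagen, was 17.4, 4.77 and 9.12 CPM in controls against 142, 126 and 100.1 CPM in knockouts at 20 weeks (log2 fold change 3.56, SE 0.45, adjusted p = 0.00440) and kept its call in every alternative. Mrc2, an endocytic receptor for collagen fragments, was 33.3, 22.4 and 51.0 CPM in controls against 143, 130.3 and 109.6 CPM in knockouts at 20 weeks (log2 fold change 1.84, SE 0.30, adjusted p = 0.00982). At 28 weeks Mrc2 was 53.0, 25.9 and 25.8 CPM in controls against 57.6, 99.1 and 94.3 CPM in knockouts (log2 fold change 1.26, SE 0.35, adjusted p = 0.0495). Itgb1, the common beta subunit of the collagen-binding integrins, was 3737, 3433 and 3449 CPM in controls against 5543, 6267 and 6452 CPM in knockouts at 28 weeks (log2 fold change 0.78, SE 0.13, adjusted p = 0.0109). None of these overlapped between groups. Itga11 was not called at 28 weeks, in the analysis reported or in any alternative (log2 fold change 0.63 to 2.08 across alternatives). Mrc2 did not pass at 20 weeks without control 1 (adjusted p = 0.0646), nor at 28 weeks without control 2 (0.150), control 3 (0.153), knockout 2 (0.137) or knockout 3 (0.114) or with controls 2 and 3 summed (0.152). Itgb1 did not without control 2 (0.0626) or control 3 (0.0636) or with these summed (0.0630). The list had 1 riser without control 1 and 4 without knockout 2 at 20 weeks; at 28 weeks it had none without control 2, without control 3 or with these summed, 1 without knockout 2 or without knockout 3, and 3 without knockout 1.

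Of 10 genes for collagen degradation and its inhibitors 4 rose and none fell at 20 weeks (median 0.67), and 3 rose and 1 fell at 28 weeks (0.76). The metalloproteinase Mmp2 was among the risers at 20 weeks, at 192, 100.3 and 247 CPM in controls against 846, 795 and 642 CPM in knockouts (log2 fold change 2.08, SE 0.32, adjusted p = 0.00833). At 28 weeks Mmp8, a collagenase, was 0.154, 0.268 and 0.376 CPM in controls against 0.909, 1.45 and 2.03 CPM in knockouts (log2 fold change 2.44, SE 0.48, adjusted p = 0.0165), and the gelatinase Mmp9 was 38.0, 25.8 and 25.7 CPM in controls against 0.909, 1.09 and 7.74 CPM in knockouts (log2 fold change -3.19, SE 0.85, adjusted p = 0.0421). Mmp9 was thus lower in every knockout and the others higher. Mmp2 did not pass without control 1 (adjusted p = 0.0528), nor Mmp8 without control 2 (0.0716), without knockout 2 (0.0541) or with controls 2 and 3 summed (0.0573). Mmp9 kept its call without knockout 3 but not when any other single library was left out (0.0647 to 0.114) or with controls 2 and 3 summed (0.0972). By p-value, inhibitors of metalloproteinases came first at both ages, but not the same ones. Timp3, held in the matrix, was 446, 333 and 484 CPM in controls against 1467, 1755 and 1787 CPM in knockouts at 20 weeks (log2 fold change 1.99, SE 0.20, adjusted p = 0.00272). Timp2 was 248, 255 and 308 CPM in controls against 599, 602 and 525 CPM in knockouts at that age (log2 fold change 1.09, SE 0.16, adjusted p = 0.00761). At 28 weeks Timp1 was 134, 138 and 144 CPM in controls against 319, 365 and 393 CPM in knockouts (log2 fold change 1.37, SE 0.12, adjusted p = 0.00296). These 3 inhibitors kept their calls at those ages in every alternative. At the other age none of them was called, in the analysis reported or in any alternative. Across alternatives the log2 fold change was 0.21 to 0.71 for Timp3 and 0.31 to 0.85 for Timp2 at 28 weeks, and -0.06 to 0.76 for Timp1 at 20 weeks. The collagen-cleaving protease Ctsk was 3.56, 3.58 and 3.24 CPM in controls against 7.28, 14.8 and 10.5 CPM in knockouts at 28 weeks (log2 fold change 1.65, SE 0.29, adjusted p = 0.0115), and did not pass without control 2 (adjusted p = 0.0528) or control 3 (0.0572) or with these summed (0.0541). Without control 1 the list had 2 risers at 20 weeks, and without control 2 it had 1 at 28 weeks, as it did with controls 2 and 3 summed; without control 3 or knockout 2 it had 2.

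Known regulators of collagen genes moved in both directions. At 20 weeks 3 of 13 rose and 1 fell (median 0.10), and at 28 weeks 1 rose and 4 fell (0.03), where 9.92% and 21.2% of all genes were called in either direction. The gene that fell at 20 weeks was Smad3, at 195, 152 and 189.7 CPM in controls against 119, 82.0 and 61.5 CPM in knockouts (log2 fold change -1.03, SE 0.25, adjusted p = 0.0414). Smad3 kept that call without knockout 1 but not when any other single library was left out (adjusted p 0.0801 to 0.149), nor when only genes reaching 1 CPM in 3 libraries were tested (0.0508). The ligand Tgfb3 was 78.3, 53.5 and 80.0 CPM in controls against 245, 319.7 and 276 CPM in knockouts at 20 weeks (log2 fold change 1.99, SE 0.21, adjusted p = 0.00290). Tgfb2, another ligand of the family, was 46.8, 41.8 and 45.1 CPM in controls against 99.2, 85.4 and 104 CPM in knockouts (log2 fold change 1.11, SE 0.16, adjusted p = 0.00660). Downstream, the signal transducer Smad3 was 229.9, 174 and 180.4 CPM in controls against 55.2, 63.0 and 73.1 CPM in knockouts at 28 weeks (log2 fold change -1.61, SE 0.17, adjusted p = 0.00351). The receptor Tgfbr2 was 298, 236 and 242 CPM in controls against 97.8, 116 and 136 CPM in knockouts (log2 fold change -1.15, SE 0.17, adjusted p = 0.00724). The ligands were thus higher in every knockout at 20 weeks, and the receptor and Smad3 lower in every knockout at 28 weeks. These calls were kept in every alternative, except that of Tgfbr2 with the replicate number as a block. Without control 1, 2 genes fell at 28 weeks and none rose, as without control 2, control 3 or knockout 2 or with controls 2 and 3 summed; without knockout 1, 2 rose and 3 fell, and without knockout 3 none rose and 5 fell. At 20 weeks the count of risers was 2 or 3 whichever library was left out.

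**Figure D5:**
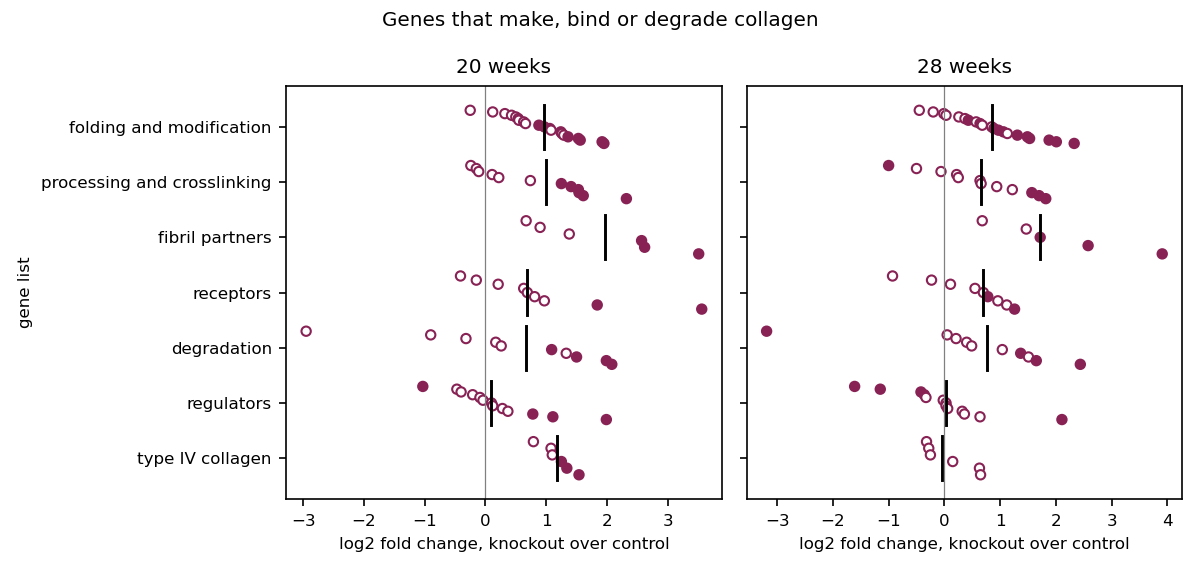
Log2 fold change of knockout over control (x axis) of each tested gene of 7 lists (y axis) at 20 and 28 weeks; filled symbols passed an adjusted p below 0.05 and black bars mark list medians. The median of the folding and modification list is 0.97 at 20 weeks and 0.85 at 28 weeks, and that of type IV collagen is 1.18 and -0.05.

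Type IV collagen, the class left out of the 37 genes, is the nearest comparison. At 20 weeks 3 of its 6 chains rose (median 1.18), led by Col4a2 at 366, 290.0 and 332 CPM in controls against 1061, 1009 and 814 CPM in knockouts (log2 fold change 1.54, SE 0.18, adjusted p = 0.00348) and Col4a1 at 689, 533 and 624 CPM in controls against 1620.0, 1516 and 1269 CPM in knockouts (log2 fold change 1.25, SE 0.17, adjusted p = 0.00641). Without knockout 1 it was 5 chains, and in the model of 12 libraries 1, where Col4a2 (adjusted p = 0.0980) and Col4a1 (0.123) did not pass. At 28 weeks none was called (median -0.05; none had an unadjusted p below 0.05, and DESeq2 called 0), and the lowest p was that of Col4a1, at 1066, 435 and 442 CPM in controls against 368, 1107 and 1574 CPM in knockouts (log2 fold change 0.65, SE 0.59, adjusted p = 0.491). Knockout 1 was then below all controls for Col4a1, while for Col3a1 it was above all of them. Whether the type IV effect differs between ages was not shown: the smallest p of the type IV chains for that difference was that of Col4a5 (log2 difference -1.17, adjusted p = 0.538).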

How the data were processed

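RNA sequencing measured 12 podocyte libraries, 3 for each genotype and age. Per the file headers, the authors deposited 1 table of unnormalized read counts by gene symbol at each age. The authors also deposited FPKM values, reads per length of gene and depth of library by definition; how these were calculated was not stated. The genome build was GRCm38 (mm10), per the submitters' processing notes; aligner, counter, strand setting and annotation were not given in the sources used here. For each age, counts were fitted separately in edgeR 4.0.16 (R 4.3.3) with TMM scaling, the filterByExpr filter and a quasi-likelihood F test (no block, Benjamini-Hochberg adjustment over all genes tested, threshold 0.05). A standard error is the absolute log2 fold change over the square root of F. Differences between ages came from 1 edgeR model of all 12 libraries. The script was tested on simulated data, drawn with 1 dispersion for all genes. It recovered 12 of 67 2-fold and 60 of 66 4-fold changes at 20 weeks, and 7 of 67 and 57 of 66 at 28 weeks. For a change of the knockout effect between ages it recovered only 1 of 67 2-fold and 16 of 66 4-fold changes. Alternatives were DESeq2 1.42.0, other scalings and filters, a block, limma 3.58.1 on log2(FPKM + 0.1) or log2(FPKM + 1) for genes with at least 1 FPKM in at least 3 libraries, leaving out each library, and summing controls 2 and 3 at 28 weeks. Gene positions and exon overlaps are from the GENCODE annotation of GRCm38, and promoters from RefSeq.

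The collagens, the other gene lists and the tests were chosen with earlier results of these data known. By rule, values in every library are given for collagens called at either age, the 5 highest by mean FPKM and the 3 uncalled ones with the smallest p at each age. Of each other list up to 3 called genes with the smallest p are eligible, and here the leading ones are named. Genes named beyond the rule (Col6a1, Col11a1, Col12a1 or Pcolce at the age without a call) follow a gene called at the other age. Mmp9 at 28 weeks and Smad3 at 20 weeks, each the 1 gene of its list that fell, were named after their values had been seen. Promoters were chosen after the calls had been seen.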

Additional observations from a re-analysis of the deposited data

How the results depend on the processing

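At 20 weeks the 6 collagens higher in knockouts became 4 to 9 when 1 library was left out. The count of lower collagens, 0 in the analysis reported, was 1 with DESeq2, upper-quartile scaling, no filter, or FPKM at either pseudocount, and 0 to 2 with 1 library left out. At 28 weeks the 6 higher collagens became 13 with DESeq2, 2 with FPKM at either pseudocount, 1 with controls 2 and 3 summed, and 1 to 10 with 1 library left out. The 2 lower became 1 with FPKM at either pseudocount, with the summed controls and in the model of 12 libraries, and 1 to 2 with 1 library left out. The FPKM runs at 28 weeks tested only 12 collagens, against 27 in the analysis reported. Col6a1, Col6a3, Col10a1, Col11a1 and Col14a1 were below the FPKM limit and untested there, while Col3a1, Col8a1 and Col18a1 kept their calls. Over all genes, 1473 calls at 20 weeks became 2431 with DESeq2 and 517 to 2023 with 1 library left out. The 3183 calls at 28 weeks became 1299 with the summed controls and 1266 to 3374 with 1 library left out. The cause was not tested. The joint contrasts gave 0 collagens in every alternative run. Direction turned, always without a call, for Col5a3 at 20 weeks without knockout 1 (-0.45; range with 1 library left out -0.45 to 1.38), Col6a1 at 20 weeks without control 3 (0.29; range -0.95 to 0.29), Pcolce at 28 weeks with upper-quartile scaling (0.00), with the block (0.09), without control 1 (0.67) or without knockout 1 (0.28; range -0.43 to 0.67), and Timp1 at 20 weeks without control 1 (-0.04), control 2 (-0.06) or knockout 1 (-0.04; range -0.06 to 0.76). Of the other values of single genes, 1036 kept direction and side of the threshold, 125 lost a call and 45 gained one. Deviations of same-numbered libraries from their group means correlated at -0.100, 0.324 and -0.171 at 20 weeks and at -0.566, -0.105 and -0.471 at 28 weeks. These values show no consistent pairing by replicate number. They cannot exclude one, since deviations within so small a group are tied to each other. With the replicate number as a block, 6 collagens were higher and 1 lower at 20 weeks. At 28 weeks 0 were higher and 1 lower, and 332 genes were called in all. In that fit at 28 weeks Col3a1 had an adjusted p of 0.0569 and Col18a1 kept its call. The folding list then had 1 riser, the degradation list 1, and the processing, fibril partner, receptor and regulator lists 0. Depth limits the collagens under about 50 reads per group, Col10a1 among the called ones.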
